A study of Arabidopsis thaliana with 6 samples.

Results

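The comparison described here set 2 libraries of Arabidopsis thaliana treated with 1000 µM melatonin for 12 h against 2 control libraries kept for the same time without melatonin. All plants were wild type and had grown on MS plates, a mineral culture medium, for 7 days before the treatment. These are 4 of the 6 libraries of the series, whose other 2 received 100 µM melatonin. Per the labels the RNA came from rosette leaves, while the title of the series speaks of root growth. No mutant, transgene or solvent is named in the labels. Since they also do not tell whether a group's libraries are from different plants or plates, the p-values measure no more than the spread between libraries, part or all of which may be technical. The 1000 µM libraries held 7651170 and 7723602 counts and the control libraries 6784239 and 7333967. Of the 32678 genes in the table, 18380 had enough counts to be tested.

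Melatonin is an indoleamine that plants make from tryptophan, and it is also applied to them as a growth regulator and as an antioxidant. Plants handle small foreign or excess molecules in steps. Cytochromes P450 and reductases modify them, glutathione transferases and glycosyltransferases attach glutathione or sugar, and ABC or MATE transporters move the products out of the cytosol. Many of these genes are known to respond to reactive electrophiles and to oxidative stress, and TGA factors, which bind TGACG, are among their known regulators.

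A gene was called where the adjusted p of edgeR's quasi-likelihood test was at most 0.05, and "rose" and "fell" are used of called genes alone. A call is named as kept where it also held, in the same direction and with a log2 change within 1.5 times, when each of the 4 libraries was left out in turn. At 1000 µM, 5442 of 18380 genes were called (29.6%), of which 2786 rose (15.2%) and 2656 fell (14.5%). Kept calls numbered 2384 (13.0%), with 1283 higher (6.98%) and 1101 lower (5.99%). The median log2 change of all tested genes was -0.01, with quartiles of -0.32 and 0.27, and 2320 of the calls were changes of less than 1.5-fold. Calls of at least 2-fold numbered 1346 (7.32%), with 717 higher (3.9%) and 629 lower (3.42%), and those of at least 4-fold 220 higher and 103 lower. Calls that were both kept and at least 2-fold numbered 578 higher (3.14%) and 366 lower (1.99%). The count of calls was 3188 with DESeq2, and 3360 without control replicate 1 or 3318 without control replicate 2. Both 1000 µM libraries lay on one side of both control libraries in 11867 genes, 64.6% of those tested.

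**Figure D1:**
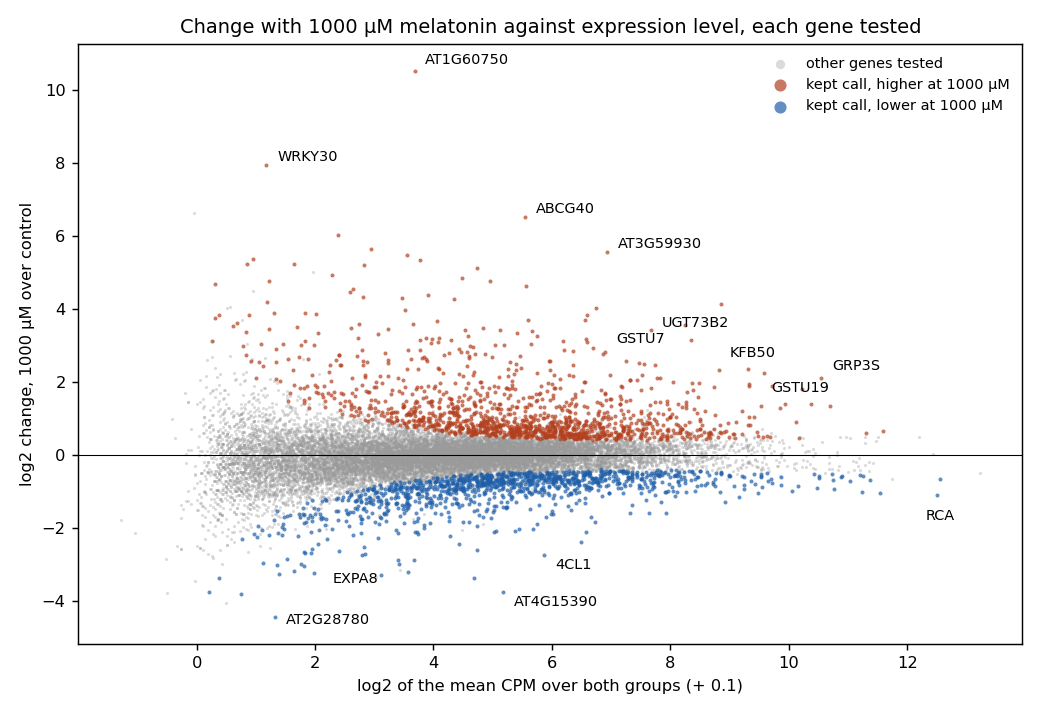
Log2 change with 1000 µM melatonin over control (vertical axis) against the log2 mean CPM over both groups (horizontal axis), one point per tested gene. Kept calls are coloured by direction, 1283 higher and 1101 lower. For AT1G60750 and WRKY30, which had 0 control counts, the plotted height is a fitted value and no bound.

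The gap between libraries of a group was wider at 1000 µM than in controls. Among genes with a mean of at least 10 CPM (counts per unit of library size, with TMM factors), 399 of 11841 lay more than 1.5-fold apart between the 1000 µM libraries and 99 of 11985 between the control libraries. Of the 2384 kept calls, 69.8% were further from the control in 1000 µM replicate 1 than in replicate 2. Markers of leaf cells, all genes of photosynthesis, photorespiration or the plastid's nitrogen assimilation, were high in sum in all 4 libraries and came to 16370 and 14910 CPM at 1000 µM, against 25230 and 27410 CPM in controls. Of 8 such markers, 7 fell and 0 rose, and 7 of the 8 are also members of the photosynthesis and nitrate lists described further on, so that their falls and those of the lists are in part the same values. Root markers were present as well. Their 20 members summed to 2292 and 2303 CPM at 1000 µM, against 3575 and 3688 CPM in controls, and of 15 tested 7 fell and 0 rose. Most of that sum was PYK10 (AT3G09260), a beta-glucosidase abundant in the ER bodies of roots, with 2006 and 2051 CPM at 1000 µM, against 3177 and 3315 CPM in controls. The root cap factor gene SMB and the root stem cell factor genes PLT1 and PLT2 were between 0.126 and 1.64 CPM in every library. Of 9 shoot apex markers 3 were tested and 0 called, and CLV3 was at 0 in all 4 libraries. Of 9 markers listed for guard cells 2 rose and 1 fell. The fall was that of ATML1, an epidermal factor gene rather than a stomatal one. Of 8 seed markers 3 were tested and 0 called. For comparison with these marker counts, 15.2% of all genes rose and 14.5% fell. In RNA from whole organs, fewer cells of a type and less RNA per cell cannot be told apart. The part of the tissue mix in the results below was not tested.

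The largest rises included an oxidoreductase, a WRKY factor, an ABC transporter and a glutathione transferase. AT1G60750, annotated as an NAD(P)-linked oxidoreductase, had 22.6 and 28.3 CPM in the 1000 µM libraries, against 0 and 0 CPM in the control libraries. With 387 counts against 0 it was at least 121-fold higher, taking 3 counts over the control group as the floor. WRKY30 (AT5G24110), a transcription factor of the defence-related WRKY family, had 65 counts at 1000 µM against 0 in controls and was at least 20.3-fold higher. Neither gene had a single control read, and both 1000 µM libraries held reads of each.

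ABCG40 (AT1G15520), an ABC transporter of the pleiotropic drug resistance subgroup, had 117 and 67.6 CPM in the 1000 µM libraries, against 0.728 and 1.23 CPM in the control libraries. Its log2 change was 6.52 ± 0.34 (SE; adjusted p = 2.28e-10), and replicate 1 stood well above replicate 2 at 1000 µM while both were far above the controls. GSTU3 (AT2G29470), a tau class glutathione transferase, had 10.5 and 9.86 CPM in the 1000 µM libraries, against 0.145 and 0.137 CPM in the control libraries. Its ratio of 72.2 rests on 2 control counts and has a counting interval of 19.7 to 602. AT3G48640, of unknown product, had a ratio of 50.6 with an interval of 8.71 to 2040. The defensin-like gene AT3G59930 (251 and 228 CPM at 1000 µM, against 3.35 and 6.70 CPM in controls), AT2G47950 and ELIP1 followed with log2 changes of 5.56, 5.63 and 5.48.

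The largest falls included an acyltransferase, an anion channel and a receptor-like protein. AT4G15390, which encodes an acyltransferase of the HXXXD type, had 4.57 and 5.44 CPM in the 1000 µM libraries, against 74.1 and 60.8 CPM in the control libraries (log2 change -3.74 ± 0.16, adjusted p = 2.45e-11). AT2G28780 and SLAH1 (AT1G62280), a homologue of the guard cell anion channel SLAC1, had 3 counts each at 1000 µM against 65 and 42 in controls, ratios of 0.0433 (0.0087 to 0.132) and 0.067 (0.0133 to 0.21). AIR1 (AT4G12550), named for its induction by auxin in root cultures, had 5.40 and 3.79 CPM at 1000 µM, against 24.4 and 68.7 CPM in controls. Its control libraries were further apart than its 1000 µM libraries (log2 change -3.35 ± 0.38). The groups did not overlap, as the rule for naming required. AT4G25090, annotated as riboflavin synthase-like, RLP21, a receptor-like protein, and the defensin-like AT4G22230 had log2 changes of -3.27, -3.23 and -3.25. AT3G45070, annotated as a nucleoside triphosphate hydrolase, had 3 counts against 31.

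In read share rather than fold, the gains went to other genes. GRP3S (AT2G05380), a short glycine-rich protein, gained most, with 2638 and 2230.0 CPM in the 1000 µM libraries, against 549 and 571 CPM in the control libraries. ADC2 (AT4G34710), an arginine decarboxylase of polyamine synthesis, had 2774 and 1987 CPM at 1000 µM, against 976 and 906 CPM in controls. The lectin-like AT1G78830, AZI1 (AT4G12470), a lipid-transfer-like protein of systemic immunity, UBQ10, a polyubiquitin, and XTH24 completed the 6 largest gains, with log2 changes of 1.81, 1.41, 0.67 and 0.61. These ranks are of counts and are not corrected for transcript length. The 6 largest losses were RCA, RBCS3B, GLDP1, CA1, PYK10 and GAPB. They were genes of carbon fixation and photorespiration, apart from PYK10. RCA (AT2G39730), rubisco activase, had 3697 and 3696 CPM in the 1000 µM libraries, against 7562 and 8230.0 CPM in the control libraries, a log2 change of -1.09 ± 0.10. GLDP1 (AT4G33010), the P protein of the photorespiratory glycine decarboxylase, had 2169 and 1767 CPM at 1000 µM, against 3815 and 4227 CPM in controls. The groups were apart for each of these 12 genes, as the rule for naming required.

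Many conjugating enzymes of detoxification rose. Of 31 tau and phi glutathione transferases tested, 18 rose and 7 fell (58.1% and 22.6%, against 15.2% and 14.5% of all genes), 15 and 3 of them kept, with a median log2 change of 0.71. GSTU7 (AT2G29420) had 226 and 194 CPM in the 1000 µM libraries, against 30.7 and 28.6 CPM in the control libraries, and GSTU19 (AT1G78380) had 1438 and 1099 CPM at 1000 µM, against 258 and 272 CPM in controls. Log2 changes were 2.82 ± 0.11 and 2.26 ± 0.12, and GSTU1 and GSTU24 reached 2.71 and 3.21 (adjusted p between 9.79e-12 and 7.41e-09 for the 4 genes). Their paralogues did not all move with them: GSTF14, GSTU18 and ATGSTU17 were kept falls with log2 changes of -1.71, -0.91 and -0.76. Of 50 UGT glycosyltransferases, 24 rose and 7 fell, with 19 and 4 kept and a median of 0.51. UGT73B2 (AT4G34135), a flavonoid glucosyltransferase, had 374 and 368 CPM in the 1000 µM libraries, against 33.6 and 35.8 CPM in the control libraries, a log2 change of 3.42 ± 0.10 with close agreement between libraries. UGT73B3, UGT73B4 and UGT84A2, a sinapate glucosyltransferase, had log2 changes of 2.13, 2.81 and 2.18.

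The letters before the start of a few of these genes are printed to show what the motif search read. They are the 250 bases before the annotated gene start on the gene's strand, from the RefSeq genome and annotation of TAIR10.1, with TGACG on either strand in capitals. GSTU7 (chr2:12618900-12619149, minus strand) and UGT73B3 (chr4:16344819-16345068, minus strand) were chosen because they hold it more than once, and AT1G60750 (chr1:22363855-22364104, minus strand), the largest rise, because it does not hold it.
GSTU7: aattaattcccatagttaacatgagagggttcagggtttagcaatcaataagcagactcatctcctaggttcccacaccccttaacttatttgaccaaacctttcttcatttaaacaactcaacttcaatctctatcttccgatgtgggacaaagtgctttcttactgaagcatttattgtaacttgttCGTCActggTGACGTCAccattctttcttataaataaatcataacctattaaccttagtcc
UGT73B3: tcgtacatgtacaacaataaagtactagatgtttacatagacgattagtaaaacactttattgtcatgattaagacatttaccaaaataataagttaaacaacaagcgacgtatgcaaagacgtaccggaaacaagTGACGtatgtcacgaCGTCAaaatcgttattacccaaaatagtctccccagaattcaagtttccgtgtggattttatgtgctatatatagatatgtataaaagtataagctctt
AT1G60750: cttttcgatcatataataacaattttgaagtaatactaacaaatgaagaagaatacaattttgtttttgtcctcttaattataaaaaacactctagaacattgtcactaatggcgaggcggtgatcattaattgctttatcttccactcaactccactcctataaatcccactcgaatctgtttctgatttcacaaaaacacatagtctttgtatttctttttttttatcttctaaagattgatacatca
In GSTU7 the first matching base lay 61, 52 and 49 bases before the start, with the last 2 matches overlapping as TGACGTCA, and in UGT73B3 it lay 114 and 99 bases before it. TGACG on either strand was found in 9 of the 18 windows of glutathione transferases that rose, in 4 of 13 of those that did not, and in 19.4% of the 18228 tested genes with a window. It was in 27.0% of 574 kept genes that rose at least 2-fold and in 21.4% of 365 that fell as far. TTGAC, the core that WRKY factors bind, was in 58.5% of those that rose, 47.4% of those that fell and 44.9% of all. ACGTG was in 30.8%, 28.5% and 4302 of 18228, CACGTG, which also contains ACGTG, in 8.71%, 7.67% and 7.27%, and the mitochondrial dysfunction motif in 1.92%, 0.548% and 0.801% of the same 3 sets. Each motif was searched on both strands. These shares are descriptions of letters and not of binding.

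The listed reductases mostly rose, while cytochromes P450, taken by name whatever their pathway, went both ways. Of 10 genes listed as detoxification reductases and related genes, 8 rose and 1 fell, with a median log2 change of 1.35. SDR (AT4G13180), a short-chain dehydrogenase, had 116 and 94.4 CPM in the 1000 µM libraries, against 17.61 and 17.63 CPM in the control libraries. OPR1 (AT1G76680), an oxophytodienoate reductase-like enzyme, had 436 and 300.2 CPM at 1000 µM, against 83.1 and 87.9 CPM in controls. AER, an alkenal reductase, and AKR4C8, an aldo-keto reductase, had log2 changes of 1.32 and 1.39. In each of these genes both libraries at 1000 µM were above both controls, as the rule for naming required. Of 156 cytochromes P450 tested 28 rose (17.9%, close to the 15.2% of all genes) and 38 fell (24.4%, against 14.5% of all genes), with a median of -0.22. CYP71B22 (AT3G26200) had 45.1 and 38.9 CPM at 1000 µM, against 4.51 and 3.28 CPM in controls, and CYP81D11 had a log2 change of 2.46. C4H, of phenylpropanoid synthesis, and CYP708A2, of the triterpene thalianol, changed by -1.59 and -2.08. Both are enzymes of synthesis and are counted again in groups described further on.

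Transporters moved in both directions, with 15.2% rising and 14.5% falling among all genes. Of 66 ABC transporters of subfamilies B, C and G, 20 rose and 12 fell, and 14 of the rises and 2 of the falls were kept. Besides ABCG40, ABCG1 (AT2G39350), known for the export of suberin precursors, had 210.5 and 156 CPM in the 1000 µM libraries, against 26.8 and 21.9 CPM in the control libraries. ABCB9 and ABCB21, an auxin transporter, had log2 changes of 1.98 and 1.16. Of 39 MATE transporters 12 rose and 12 fell, with 9 and 5 kept. DTX1, which exports toxic compounds, ALF5, needed for root resistance to toxins, AT3G23550 and AT1G33110 had log2 changes of 1.65, 1.27, 1.58 and 0.82.

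**Figure D2:**
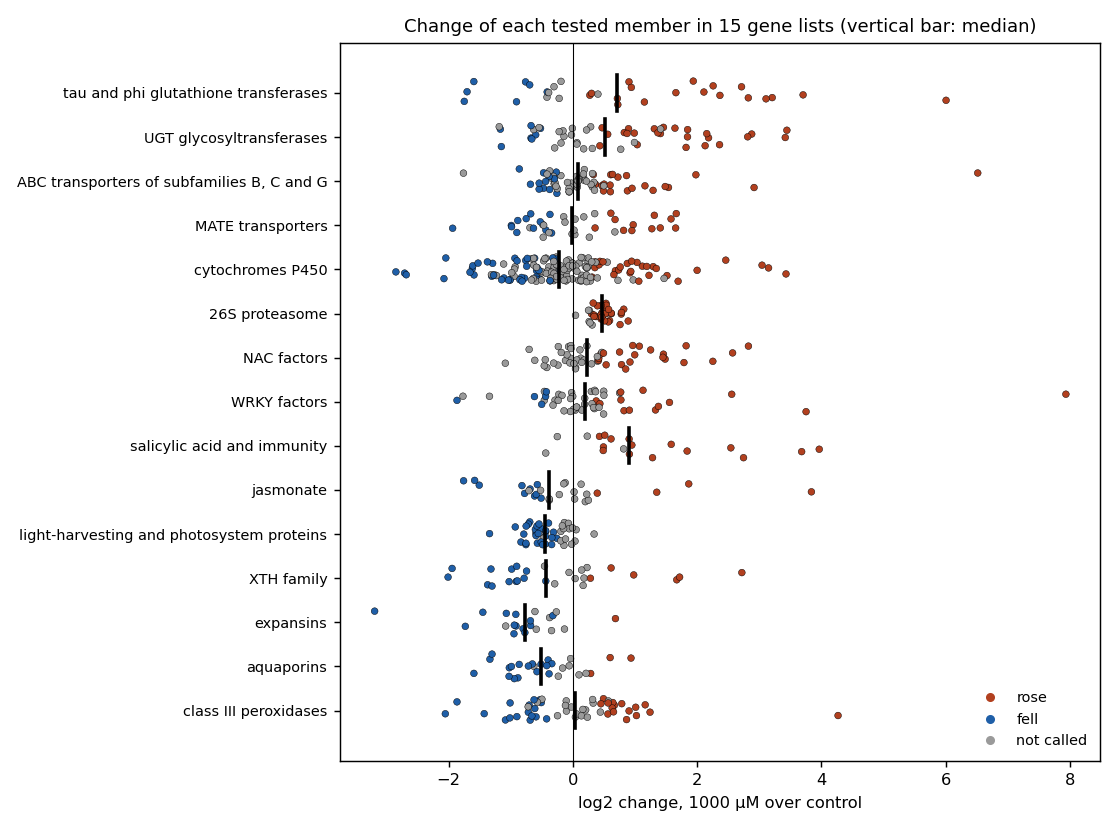
Log2 change, 1000 µM over control (horizontal axis), of each tested member of 15 gene lists, coloured by call, with the list's median as a vertical bar. Tau and phi glutathione transferases have a median of 0.71 and expansins of -0.77, while the 26S proteasome genes lie close together around 0.47.

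Most genes of the 26S proteasome, which degrades ubiquitinated proteins, rose by small amounts. Of 35 such genes 29 rose and 0 fell (16 kept), 82.9% against 15.2% of all genes, and 18 rose without control replicate 2. None rose by 2-fold, and the median log2 change was 0.47. RPT3 (AT5G58290), an ATPase of the regulatory particle, had 200.5 and 173 CPM in the 1000 µM libraries, against 105 and 112 CPM in the control libraries (log2 change 0.78 ± 0.10, adjusted p = 1.09e-05), and PAD1 (AT3G51260), a subunit of the core particle, had 96.0 and 86.7 CPM at 1000 µM, against 49.6 and 58.2 CPM in controls. Of 28 autophagy genes 9 rose, 0 fell and 19 were not called, and 4 rose when either control library was left out. Of these calls 2 were kept, those of NBR1, a receptor for ubiquitinated cargo, and ATG8B (0.73 and 0.60). Of 19 genes of the response to misfolded protein in the endoplasmic reticulum, 10 rose and 1 fell (8 and 0 kept). BZIP60 (AT1G42990), a transcription factor of that response, had 124 and 108 CPM in the 1000 µM libraries, against 44.8 and 42.4 CPM in the control libraries, and its activator IRE1A rose by 0.61 on the log2 scale. P58IPK and PDIL1-2, a co-chaperone and a disulfide isomerase, had log2 changes of 0.82 and 0.85. Heat shock proteins and factors did not share a direction. Of 12 tested 6 rose and 3 fell: HSFB2A, HSP90.1 and HSFA7A had log2 changes of 1.2, 0.99 and 0.81, and HSP101, which takes aggregates apart, had 18.8 and 15.9 CPM at 1000 µM, against 37.5 and 36.6 CPM in controls.

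Many mitochondrial retrograde genes, which are known to respond when respiration is disturbed, rose as well. The shares among all genes were 15.2% rising and 14.5% falling. Of 14 tested 10 rose and 1 fell, with a median of 0.82, and 6 rose without control replicate 2. AOX1A (AT3G22370), the alternative oxidase, had 109.7 and 84.8 CPM in the 1000 µM libraries, against 24.2 and 24.9 CPM in the control libraries, and ANAC013 (AT1G32870), a NAC factor that regulates it, had 27.4 and 22.6 CPM at 1000 µM, against 7.71 and 6.42 CPM in controls. UGT74E2 and CYP81D8 had log2 changes of 3.44 and 3.15. Counts from genes of the mitochondrial genome itself were 0.105% and 0.0704% of the total at 1000 µM, against 0.0454% and 0.0489% in controls. Of 26 antioxidant enzymes 10 rose and 2 fell, with a median of -0.01, and 5 or 4 rose without control replicate 1 or 2. DHAR2 (AT1G75270), a dehydroascorbate reductase, had 104 and 73.1 CPM at 1000 µM, against 25.2 and 22.1 CPM in controls, GR1 (AT3G24170), a glutathione reductase, and CAT1, a catalase, had log2 changes of 1.03 and 0.63, and TAPX, the thylakoid ascorbate peroxidase, had one of -0.67.

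Salicylic acid and immunity genes were among the lists most often called, with 15 of 19 tested rising and 0 falling (10 kept) and a median of 0.90. The background for this and the next lists was 15.2% rising and 14.5% falling among all genes. ICS1 (AT1G74710), isochorismate synthase, had 76.8 and 57.3 CPM in the 1000 µM libraries, against 10.3 and 12.6 CPM in the control libraries, and PBS3 (AT5G13320), which joins glutamate to isochorismate, had 26.9 and 15.7 CPM at 1000 µM, against 1.46 and 1.23 CPM in controls. PR5 (AT1G75040), a thaumatin-like pathogenesis-related protein, had 99.4 and 80.2 CPM in the 1000 µM libraries, against 6.11 and 7.79 CPM in the control libraries, a log2 change of 3.68 ± 0.16 (adjusted p = 2.40e-11). FRK1, a receptor-like kinase of pattern-triggered immunity, had a log2 change of 2.75. No control library reached a 1000 µM library in any of these genes, as the rule for naming required. Of 50 WRKY factors 13 rose and 5 fell, with WRKY6, WRKY22 and WRKY26 at 1.55, 1.38 and 1.13. Of 26 cysteine-rich receptor-like kinases 9 rose and 8 fell. CRK3 (AT1G70530), CRK13 and CRK11 rose by 1.74, 1.29 and 1.28, and CRK42 had a log2 change of -1.17.

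Jasmonate genes leaned the other way, with 4 of 27 rising and 10 falling (2 and 5 kept), or 5 falling without control replicate 2. LOX2 (AT3G45140), the chloroplast lipoxygenase of jasmonate synthesis, had 134 and 111 CPM in the 1000 µM libraries, against 318 and 416 CPM in the control libraries, and AOC2, an allene oxide cyclase, and VSP1, a storage protein induced by jasmonate, had log2 changes of -1.51 and -1.76. ST2A (AT5G07010), a sulfotransferase that inactivates 12-hydroxyjasmonate, had 40.3 and 33.9 CPM at 1000 µM, against 15.3 and 13.8 CPM in controls. By at least 2-fold, 3 jasmonate genes rose and 3 fell, and log2 changes in the list ran from -1.76 to 3.84. The shares of jasmonate genes rising and falling were 14.8% and 37.0%, against 15.2% and 14.5% of all genes. In contrast to these, of 51 NAC factors 21 rose and 0 fell (14 kept). ANAC002 (AT1G01720), also known as ATAF1, had 291 and 228 CPM in the 1000 µM libraries, against 45.1 and 42.2 CPM in the control libraries, and RD26, NAC001 and NAC102 had log2 changes of 2.25, 2.83 and 1.45. ORE1 (AT5G39610), a NAC factor of leaf senescence, had 77.3 and 78.2 CPM at 1000 µM, against 29.0 and 26.6 CPM in controls. With it rose NYC1, a chlorophyll b reductase, CLH2, a chlorophyllase, and SAG21, a senescence-associated gene, by 0.87, 1.5 and 0.94 on the log2 scale, and 7 of 18 genes of that list rose and 1 fell.

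**Figure D3:**
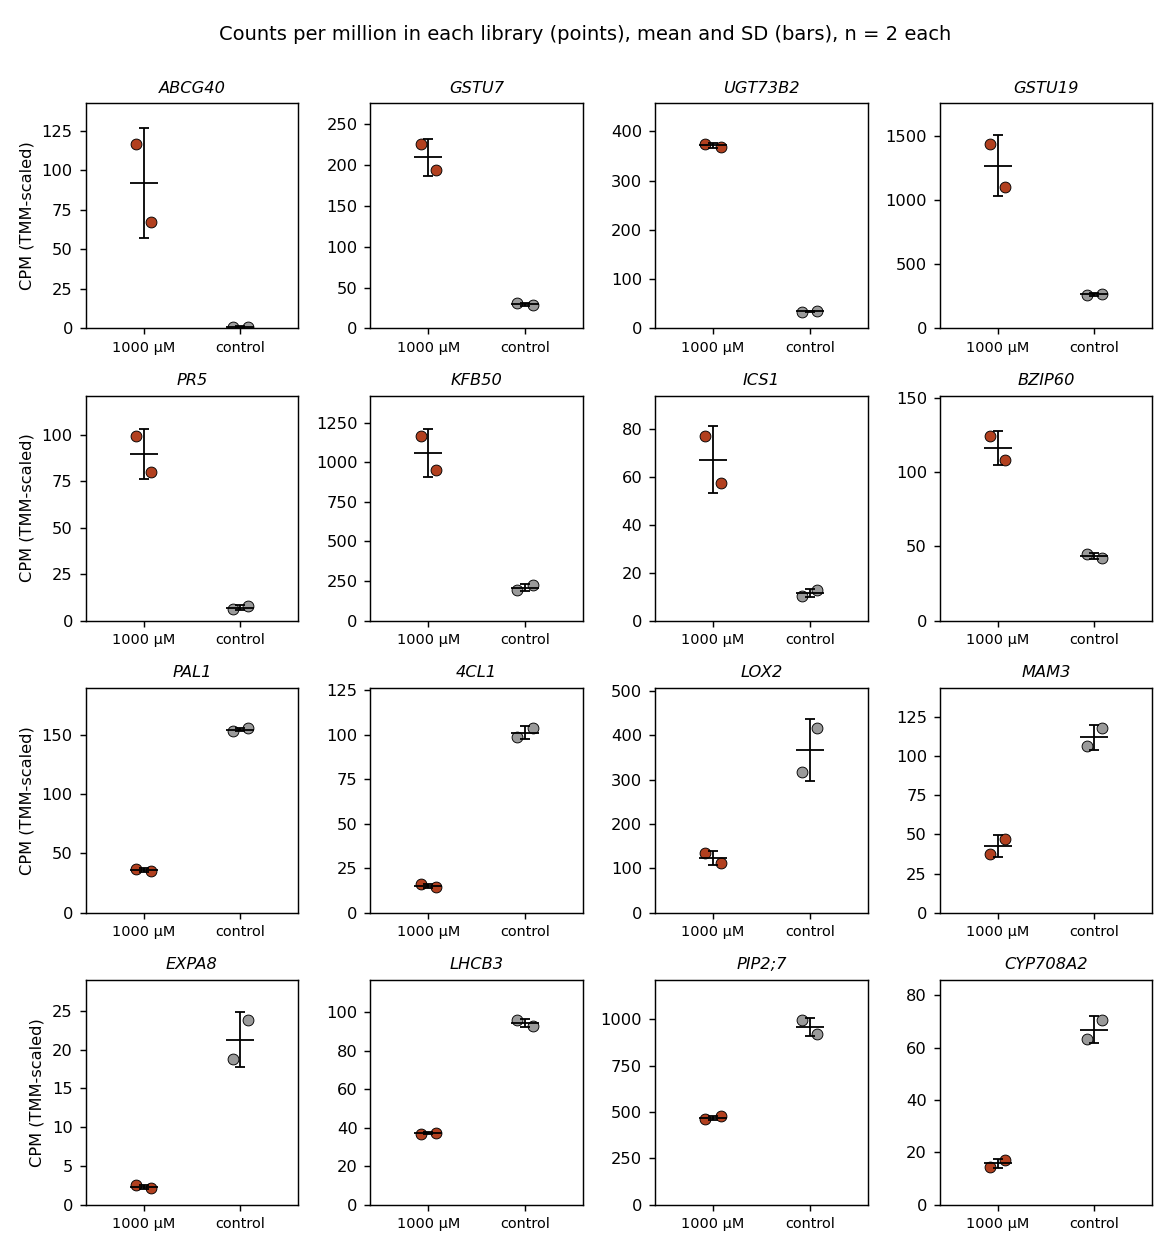
CPM in each library (points) of 16 genes, with 1000 µM left of control and bars for the mean and SD (n = 2 each). In each panel the 2 groups do not overlap, as the rule for naming required. ABCG40 shows the wider gap between 1000 µM replicates (117 and 67.6 CPM).

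Phenylpropanoid synthesis, which leads to lignin, sinapate esters and flavonoids, held many falls. Of 18 genes 14 fell and 0 rose (13 kept falls), 77.8% against 14.5% of all genes, with a median log2 change of -1.18. 4CL1 (AT1G51680), 4-coumarate:CoA ligase, had 16.1 and 14.4 CPM in the 1000 µM libraries, against 98.7 and 104 CPM in the control libraries (log2 change -2.73 ± 0.12, adjusted p = 2.40e-11). PAL2 (AT3G53260), a phenylalanine ammonia-lyase, had 50.8 and 42.4 CPM at 1000 µM, against 166 and 166 CPM in controls, and HCT (AT5G48930), of the shikimate ester step, had 52.6 and 43.2 CPM at 1000 µM, against 147 and 160.4 CPM in controls. In each of the 3 genes the gap between groups was wider than that between replicates, as the rule for naming made likely. PAL3, CCR1, CCR2 and CAD5 were the 4 members not called, with log2 changes of -0.12, 0.03, -0.12 and 0.26. Kelch-repeat F-box proteins (KFB) are known to target phenylalanine ammonia-lyase for degradation. Of 5 genes of this family 4 were tested, since KFB39 was at 0 in all 4 libraries, and 3 rose. KFB50 (AT3G59940) had 1165 and 952 CPM in the 1000 µM libraries, against 192 and 225 CPM in the control libraries, and KFB01 and KFB20 had log2 changes of 1.97 ± 0.11 and 1.88 ± 0.11. KFBCHS (AT1G23390), which targets chalcone synthase of the flavonoid branch instead, had 224 and 185 CPM at 1000 µM, against 334 and 388 CPM in controls. MYB4 (AT4G38620), a repressor of C4H, had 119 and 168 CPM in the 1000 µM libraries, against 17.9 and 21.7 CPM in the control libraries. Flavonoid genes had no common direction, with 4 of 15 rising and 4 falling, against 15.2% and 14.5% of all genes. Among them were the regulators HYH and PAP2 (AT1G66390) at 1.21 and 1.89 and the isomerase TT5 at -0.95.

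**Figure D4:**
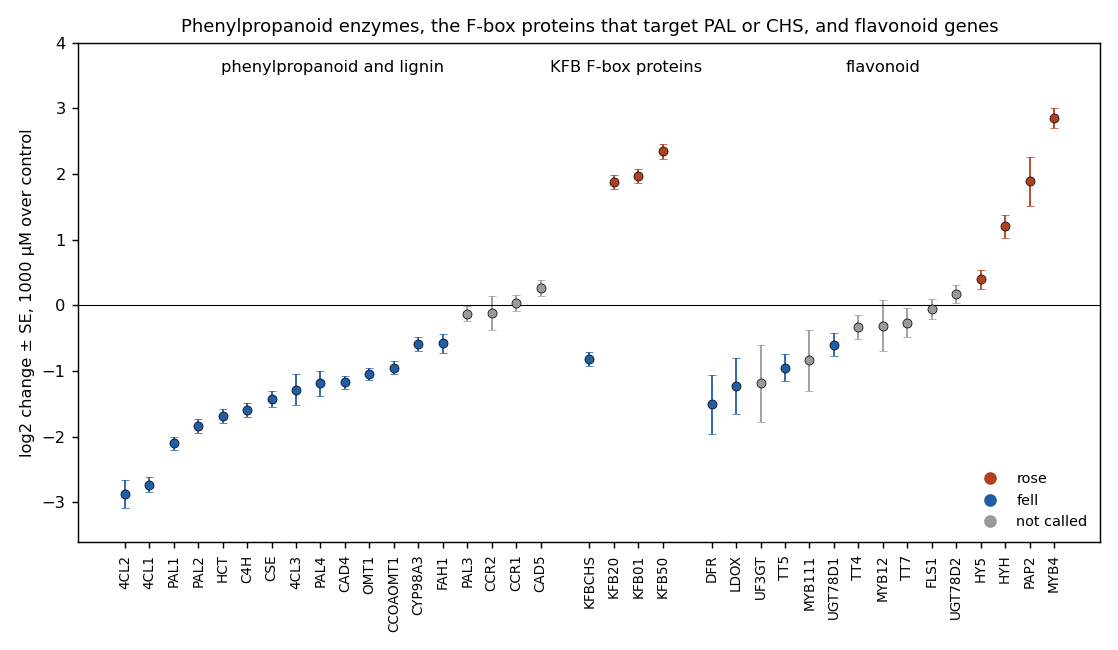
Log2 change ± SE, 1000 µM over control, of the tested genes of phenylpropanoid and lignin synthesis, of the KFB F-box proteins and of the flavonoid list, coloured by call. The phenylpropanoid genes run from -2.87 to 0.26, with 14 of 18 fallen, while KFB20, KFB01 and KFB50 stand at 1.88, 1.97 and 2.34.

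Aliphatic glucosinolates, defence compounds made from methionine, showed the same direction, with 9 of 14 genes falling and 0 rising (6 kept falls) and a median of -0.80. All genes together had 14.5% falling and 15.2% rising. MAM3 (AT5G23020), a methylthioalkylmalate synthase of chain elongation, had 37.4 and 47.3 CPM in the 1000 µM libraries, against 106 and 118 CPM in the control libraries. BAT5, BCAT4 and IMD1, also of chain elongation, had log2 changes of -1.59, -1.31 and -1.1. Indole glucosinolate and camalexin genes were mixed, with 4 of 13 rising and 2 falling. CYP81F2, which modifies indole glucosinolates, had 17.2 and 17.57 CPM at 1000 µM, against 8.88 and 9.16 CPM in controls. UGT74B1, which acts in both branches, had a log2 change of -0.52. Of 14 genes of tryptophan and melatonin synthesis 5 fell and 0 rose. TRP1 (AT5G17990), of tryptophan synthesis, had 23.5 and 26.4 CPM at 1000 µM, against 51.2 and 56.7 CPM in controls. OMT1 (AT5G54160), a caffeate O-methyltransferase of lignin synthesis that can also methylate N-acetylserotonin to melatonin, had 120.3 and 117 CPM at 1000 µM, against 242 and 247 CPM in controls, and PAI2 had a log2 change of -1.33.

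Many genes of photosynthesis fell by moderate amounts, with 14.5% falling and 15.2% rising among all genes. Of 20 Calvin cycle genes 15 fell and 1 rose (9 and 0 kept), or 9 fell without control replicate 2. The median was -0.48, and besides RCA 0 fell by 2-fold. GAPB (AT1G42970), a subunit of glyceraldehyde-3-phosphate dehydrogenase, had 1224 and 1160.0 CPM in the 1000 µM libraries, against 2224 and 2318 CPM in the control libraries, and SBPASE and HCEF1, bisphosphatases, had log2 changes of -0.83 and -0.86. Of 43 light-harvesting and photosystem genes 28 fell and 0 rose (17 kept), with LHCB3 (AT5G54270) at 37.0 and 37.5 CPM at 1000 µM, against 95.9 and 93.2 CPM in controls. Of 20 chlorophyll synthesis genes 11 fell and 0 rose, or 7 and 4 fell without control replicate 1 or 2, and 3 falls were kept, those of PORC, CHLM and GUN5 at -0.62, -0.49 and -0.47. Against these stood ELIP1 and ELIP2, light-stress proteins that bind chlorophyll. ELIP1 had 21.6 and 24.0 CPM at 1000 µM, against 0.291 and 0.683 CPM in controls, and ELIP2 had 16.2 and 10.11 CPM at 1000 µM, against 0.291 and 0.957 CPM in controls. They were the 2 rises among 8 genes of their list.

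Many cell wall and water channel genes fell, with 14.5% falling and 15.2% rising among all genes as the background. Of 21 expansins, which loosen walls, 13 fell and 1 rose (10 and 0 kept), with a median of -0.77. EXPA8 (AT2G40610) had 2.49 and 2.15 CPM in the 1000 µM libraries, against 18.8 and 23.8 CPM in the control libraries, and EXPA11, ATEXPA3 and EXPA6 had log2 changes of -1.73, -0.95 and -0.80. Of 27 XTH enzymes, which cut and rejoin xyloglucan, 13 fell and 6 rose, and both directions held large changes. XTH31 (AT3G44990) had 82.5 and 70.9 CPM in the 1000 µM libraries, against 11.5 and 11.8 CPM in the control libraries, while XTH33 (AT1G10550) had 16.9 and 17.57 CPM at 1000 µM, against 69.8 and 69.3 CPM in controls. XTH23 and XTH30 rose with log2 changes of 1.72 and 1.67. Of 27 aquaporins 17 fell and 3 rose (12 and 1 kept), with PIP2;7 (AT4G35100), a water channel of the plasma membrane, at 462 and 477 CPM at 1000 µM, against 995 and 924 CPM in controls, and PIP1;5, TIP2;2 and the boric acid channel NIP5;1 at -0.99, -0.87 and -1.02. Of 15 fasciclin-like arabinogalactan proteins 6 fell and 1 rose, FLA4 by a log2 change of -0.99, and of 9 cellulose synthases 3 fell and 1 rose, CESA2 by one of -0.82. Of 5 GASA peptides, named for their response to gibberellin, 4 fell, among them GASA6, GASA14 and GASA4 at -1.88, -1.08 and -0.76, and 1 rose. That was GASA1 (AT1G75750), the most abundant of them in counts, with 3460.0 and 2988 CPM at 1000 µM, against 2498 and 2474 CPM in controls, a call that was not kept. Class III peroxidases moved in both directions, 16 rising and 17 falling of 51, with log2 changes from -2.05 to 4.27. PER4 (AT1G14540) had 45.1 and 31.7 CPM at 1000 µM, against 1.89 and 2.05 CPM in controls, and AT2G37130 had a log2 change of -1.01.

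**Figure D5:**
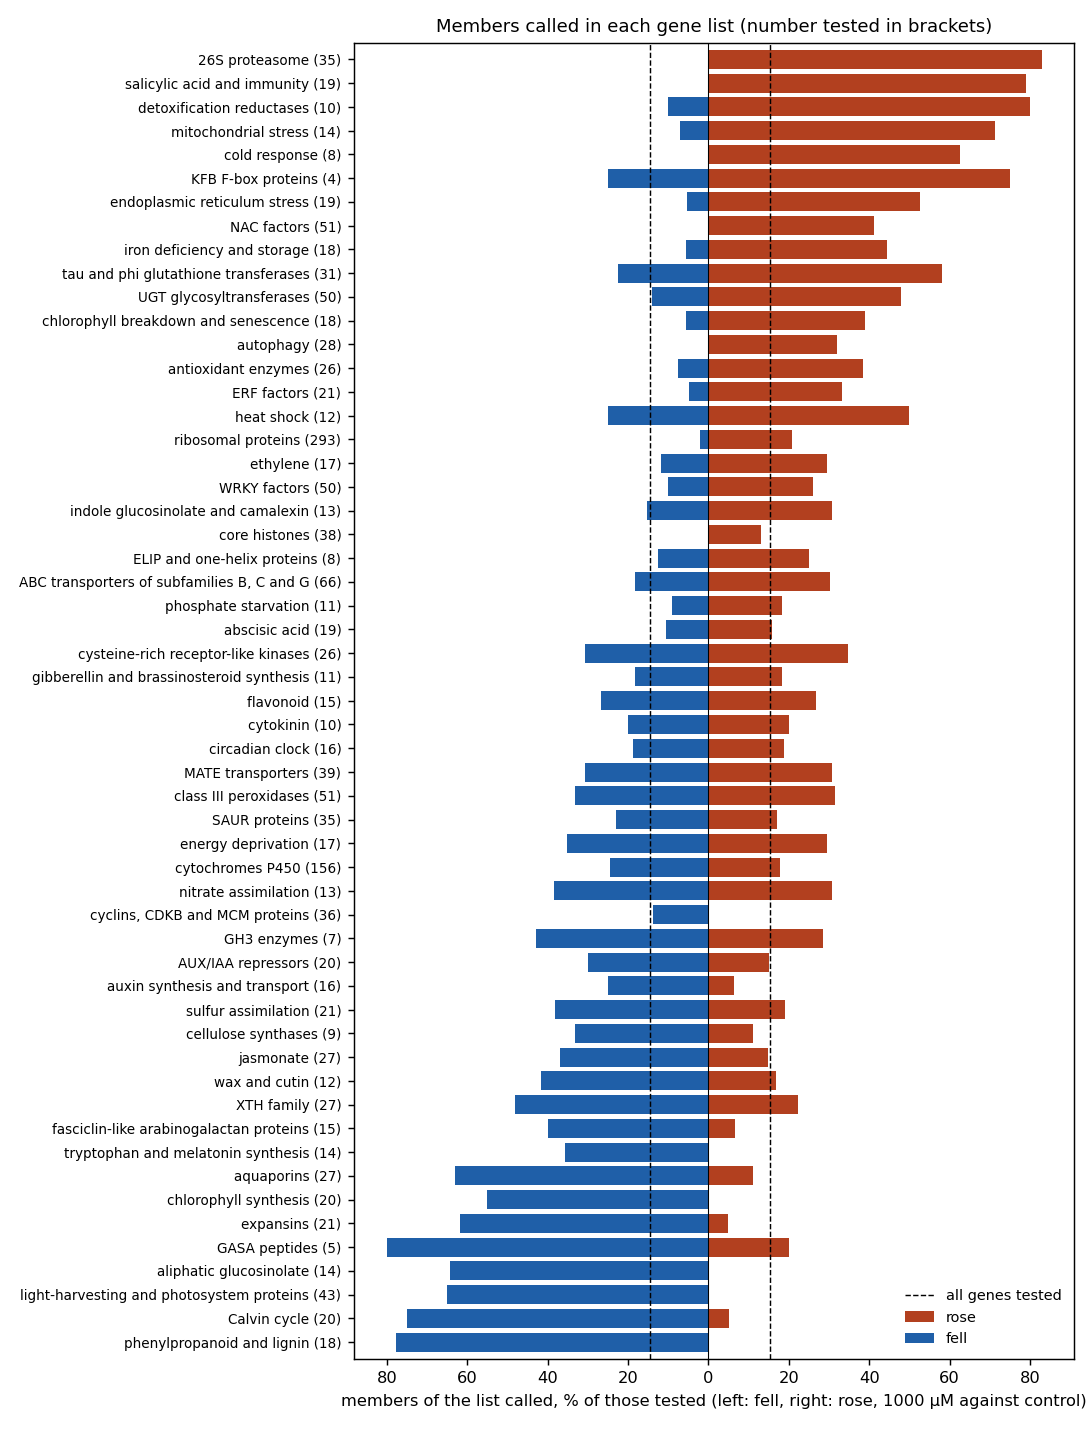
Share of the tested members of each of 55 lists and families, marker lists left out, that fell (to the left) or rose (to the right) at 1000 µM against control, in percent. Dashed lines give the shares among all tested genes, 14.5% falling and 15.2% rising, and the number tested is in brackets. Among these the 26S proteasome has the largest share of rises (82.9%) and GASA peptides and phenylpropanoid genes the largest shares of falls (80% and 77.8%).

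Other hormone lists held calls in both directions, with 15.2% rising and 14.5% falling among all genes. Of 20 AUX/IAA repressors of auxin signalling 3 rose and 6 fell, with IAA9 at 0.63 and IAA28 and IAA3 at -0.74 and -0.63. Of 35 SAUR genes 6 rose and 8 fell, and SAUR72 (AT3G12830) had 15.9 and 14.4 CPM at 1000 µM, against 3.93 and 2.87 CPM in controls. AUX1 (AT2G38120), the auxin influx carrier, had 87.2 and 84.7 CPM in the 1000 µM libraries, against 154 and 155 CPM in the control libraries, and LAX1 of the same family had a log2 change of -0.64. DAO1, which oxidises auxin, and GH3.17, which joins it to glutamate, rose by 0.91 and 0.66 on the log2 scale. Of 16 genes of auxin synthesis and transport 1 rose and 4 fell. Of 7 GH3 enzymes, a family by name whose members do not all act on auxin, 2 rose and 3 fell. The rises were those of GH3.17 and of PBS3, which is also counted among the salicylic acid genes above. Ethylene synthesis genes ACS7 and ACS8 had log2 changes of 1.98 and 1.19, with 5 of 17 ethylene genes rising and 2 falling. Of 19 abscisic acid genes 3 rose and 2 fell, of 10 cytokinin genes 2 rose and 2 fell with 0 of these calls kept, and of 11 genes of gibberellin and brassinosteroid synthesis 2 rose and 2 fell. CKX3, a cytokinin oxidase, had 4.15 and 2.15 CPM at 1000 µM, against 0.145 and 0.82 CPM in controls and was not called without control replicate 1. GA3OX1, of gibberellin synthesis, had 25.8 and 19.1 CPM at 1000 µM, against 8.88 and 7.52 CPM in controls.

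Nutrient lists held large changes in both directions, with 15.2% rising and 14.5% falling among all genes. BHLH101 (AT5G04150), a factor of the iron deficiency response, had 52.5 and 65.1 CPM in the 1000 µM libraries, against 16.9 and 15.8 CPM in the control libraries, and FER1, the iron store ferritin that is known to move the opposite way in iron deficiency, had 85.6 and 80.2 CPM at 1000 µM, against 35.5 and 31.0 CPM in controls. BHLH39 and BHLH100 had log2 changes of 0.92 and 0.75, and of 18 iron genes 8 rose and 1 fell, 3 and 1 of them by at least 2-fold. In sulfur assimilation 4 of 21 rose and 8 fell, 2 and 4 of them by at least 2-fold. SERAT2;1, a serine acetyltransferase, APR3, an APS reductase, and LSU2 had log2 changes of 1.5, 0.98 and 1.30, and SDI1 (AT5G48850), a marker of sulfur deficiency, had 2.21 and 1.90 CPM at 1000 µM, against 12.9 and 10.8 CPM in controls. NRT3.1 (AT5G50200), a partner of high-affinity nitrate transporters, had 84.7 and 66.5 CPM in the 1000 µM libraries, against 25.9 and 24.2 CPM in the control libraries, and the glutamine synthetases GSR1 of the cytosol and GS2 of the chloroplast had log2 changes of 0.91 and -0.67. Of 17 energy deprivation genes 5 rose and 6 fell, and ASN1 (AT3G47340), an asparagine synthetase, had 358 and 354 CPM at 1000 µM, against 781 and 800.5 CPM in controls. Of 11 phosphate genes 2 rose and 1 fell (SPX1 0.97, PAP17 0.96 and PHO1 -0.57), and of 12 wax and cutin genes 2 rose and 5 fell, with CER1 at -0.81. Of 8 cold response genes 5 rose and 0 fell, among them the zinc finger genes ZAT12 (AT5G59820), with 81.4 and 60.9 CPM at 1000 µM, against 15.3 and 10.2 CPM in controls, and ZAT10.

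Lists of cell division and ribosomes held few kept calls, with 13.0% kept among all genes. Of 36 cyclins, CDKB and MCM genes 5 fell and 0 rose (13.9% and 0, against 14.5% and 15.2%), and 1 fall was kept, CYCA2;3 at -1.08. Of 38 core histones 5 rose and 0 fell with 1 kept. Of 293 ribosomal protein genes 61 rose and 6 fell, but 8 rises and 1 fall were kept and the median was 0.18. Without control replicate 1 or 2 there were 19 or 21 rises, and without 1000 µM replicate 2 there were 126. Clock genes had 3 rises and 3 falls among 16, with BOA, ELF4 and GI at 1.21, 0.79 and 0.95. Of 21 ERF factors 7 rose and 1 fell, with ERF5 at 1.26 and ERF71 at 63 counts against 3, a ratio of 19.7 (6.44 to 98.1).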

How the data were processed

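RNA of wild-type Arabidopsis, from leaves per the labels, was sequenced in 3 groups of 2 libraries, and samples were grouped by the treatment in the labels. The authors deposited whole-number read counts per gene. The tools behind them, per the submitters' processing notes, were TopHat2 2.0.12 with Bowtie2 2.2.3, DESeq 1.18.0 and HTSeq 0.6.1, and the build was TAIR10. Neither the role of each tool nor the strand setting is given in the sources used here. Genes that overlap another (53 of the 206 named, among them PYK10, RCA, GLDP1, GSTU7, OPR1, ABCG1, RPT3, HSP101, ANAC013, ANAC002, 4CL1, KFB50, TRP1, LHCB3, BHLH101, FER1 and ASN1) or have near-identical copies, such as RBCS3B, UBQ10, LHCB1 and neighbouring GST or UGT genes, are therefore less certain.

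Symbols came from RefSeq's TAIR10.1 table, which held 31912 of the 32678 identifiers. Counts were fitted in R 4.3.3 with edgeR 4.0.16 (filterByExpr, TMM, glmQLFit and glmQLFTest, two-sided, Benjamini-Hochberg over 18380 genes, threshold 0.05) on all 6 libraries with the group as the only term, which left 3 residual degrees of freedom, with 14.1 from the prior. The coefficient of variation between libraries beyond counting error, which may be technical, was 7.78%. Values are CPM with TMM factors, replicate 1 before replicate 2, and log2 changes ± SE. Ratios with 1 to 3 counts in a group have exact 95% intervals, which cover counting error only. Tested on simulated data for this comparison, the fit recovered 80.5% of 200 genes changed 2-fold.

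The comparison and its 55 gene lists and families and 5 marker lists were chosen with earlier results of these data known, and 30 genes caught by a family's name alone were left out whatever their values. Named genes are kept calls with groups that do not overlap: the 8 largest rises and falls, the 6 largest gains and losses in mean CPM, and up to 4 kept members with the smallest adjusted p in each list. A list with no kept member is represented by its member with the smallest p, which was CKX3. A kept list member named beside these, a member not called or a gene of the closing section was chosen after its values were seen. Alternatives were DESeq2 1.42.0, RLE and upper-quartile scaling, no filter, only these 2 groups, limma 3.58.1 voom with sample weights, a replicate block and leaving out each library.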

Additional observations from a re-analysis of the deposited data

How the results depend on the processing

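With RLE or upper-quartile factors, voom with sample weights, no filter, or only the 1000 µM and control libraries, between 4570 and 5990 genes were called, within 1.5 times of 5442. DESeq2 called 3188 genes (1797 higher, 1391 lower), 3185 of which edgeR also called. Leaving out 1 of the 4 libraries gave 3318 to 6684 calls (1719 to 3608 higher, 1591 to 3076 lower) and 1164 to 1815 of at least 2-fold. The low counts came without control replicate 2 (3318) or 1 (3360) and the high one without 1000 µM replicate 2 (6684), and the cause was not tested. A group left with 1 library is assumed there to vary like the others. With upper-quartile factors 44.3% of calls were higher, against 51.2% with TMM.

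Of 206 named genes, all stayed on the same side of the threshold and in the same direction under the 11 alternatives, except CKX3, which lost its call without control replicate 1. Named genes other than CKX3 were chosen as kept calls, so their calls without 1 library, 4 of the 11 alternatives, were fixed by that choice. Of 110 counts of rises or falls per gene list, 46 moved by over 1.5 times without control replicate 2, 32 without control replicate 1, 32 with DESeq2 and between 1 and 15 under each of the other alternatives. With the replicate number as a block 4959 genes were called, 2544 higher and 2415 lower, 4928 of them shared with the fit without it. The numbers do not pair the samples by the labels, and deviations of same-numbered 1000 µM and control libraries had a correlation of -0.031. With 2 libraries a group, a gene that was not called is not shown to be unchanged.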

Other observations

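The groups below were put together after the values had been seen, from neighbouring loci or shared product names, and are described without a test of the group. A group by name holds only genes with the same RefSeq product name, and other members of a family can be missing. Arabidopsis makes specialised triterpenes in roots from enzymes whose genes lie side by side, and 3 such clusters (thalianol, marneral and arabidiol) had lower counts at 1000 µM. Of their 17 genes 14 were tested, 12 fell (11 kept) and 0 rose, with a median log2 change of -1.82, against 14.5% falling among all genes. THAS1 (AT5G48010), thalianol synthase, had 14.9 and 25.4 CPM in the 1000 µM libraries, against 78.9 and 85.4 CPM in the control libraries. MRN1 (AT5G42600), marneral synthase, had 1.11 and 1.14 CPM at 1000 µM, against 4.51 and 6.01 CPM in controls, and PEN1 (AT4G15340), arabidiol synthase, had 2.35 and 2.02 CPM at 1000 µM, against 10.8 and 9.29 CPM in controls. The groups did not overlap in any of these 3 genes, which also held for 64.6% of all genes tested. The P450 genes beside them, CYP71A16, CYP702A5 and CYP705A5, had log2 changes of -2.68 ± 0.37, -2.71 ± 0.27 and -1.29 ± 0.16. The acyltransferase gene AT4G15390, among the largest falls of all, belongs to the row that holds PEN1. Root markers fell in the same libraries, as given above, and their part in these falls was not tested.

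A row of neighbouring lipid-transfer-like genes on chromosome 4 split. AZI1, EARLI1, AT4G12490 and AT4G12500 rose by 1.41, 1.1, 2.88 and 2.53 on the log2 scale, while AT4G12545 and AIR1, further along the row, had log2 changes of -2.60 and -3.35. EARLI1 (AT4G12480) had 679 and 502 CPM in the 1000 µM libraries, against 284 and 267 CPM in the control libraries, and AT4G12545 had 8.45 and 6.57 CPM at 1000 µM, against 32.5 and 58.4 CPM in controls. Reads of such similar genes could be shared between them.

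Among all genes 15.2% rose and 14.5% fell, which is the background for the counts that follow. Of 10 genes with the product name of an SPFH, band 7 or prohibitin domain protein, 7 rose and 0 fell. The largest rises were those of FLOT1, a flotillin of membrane microdomains, and its neighbour AT5G25260. FLOT1 (AT5G25250) had 50.3 and 35.9 CPM in the 1000 µM libraries, against 4.95 and 3.96 CPM in the control libraries, and AT5G25260 had 109 and 72.0 CPM at 1000 µM, against 3.93 and 3.42 CPM in controls. AT5G64870 of the same group, with 3.19 and 2.78 CPM at 1000 µM, against 0.873 and 2.32 CPM in controls, was not called. Of 32 genes with EF-hand calcium-binding annotation 15 rose and 2 fell, and of 8 E1-E2 type ATPases, a family of ion and lipid pumps, 6 rose and 0 fell, AT3G63380 by 2.38 on the log2 scale. Berberine bridge enzyme-like oxidases had 8 rises and 5 falls among 18, with AT1G30700 at 199.9 and 145 CPM at 1000 µM, against 16.3 and 21.4 CPM in controls and AT1G30760 at 6.37 and 7.46 CPM at 1000 µM, against 23.4 and 40.3 CPM in controls.

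On the falling side, 16 of 39 pectin lyase-like genes, which act on wall pectin, fell and 0 rose (14 kept). PME5 (AT5G47500) had 11.6 and 14.9 CPM in the 1000 µM libraries, against 41.0 and 45.8 CPM in the control libraries, and PMR6, a pectate lyase-like gene of powdery mildew susceptibility, had 65.2 and 69.7 CPM at 1000 µM, against 128 and 133 CPM in controls. Of 20 genes with the TRAF-like product name 11 fell and 0 rose (median -0.73). Of 14 genes with the product name of an ATP binding microtubule motor 7 fell and 0 rose (median -0.74). The same reading gave 6 falls and 0 rises among 8 O-methyltransferases and among 11 remorins, 5 and 0 among 10 extensin-like genes, and 15 and 4 among 39 GDSL lipase-like genes.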
